A study of Danio rerio with 15 samples.

Results

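The mitochondrial genome of zebrafish encodes 6 subunits of the last steps of oxidative phosphorylation that lie outside complex I: mt-co1 (ENSDARG00000063905), mt-co2 (ENSDARG00000063908) and mt-co3 (ENSDARG00000063912) of complex IV, mt-cyb (ENSDARG00000063924) of complex III, and mt-atp6 (ENSDARG00000063911) and mt-atp8 (ENSDARG00000063910) of complex V. These 6 genes were chosen by their Ensembl IDs out of 32520 gene IDs in the count table, with earlier results of these data known. All 6 passed the filter on low counts, as did 21614 genes in all. RNA was sequenced from zebrafish embryos at 50% epiboly, the stage at which the cell sheet has spread over the upper part of the yolk and gastrulation begins, in 5 groups of 3 samples, each sample a pool of 10 embryos. The groups were axin2-/- mutants, made with Cas9 in the TL strain, nkd1-/- mutants, made with Cas9 in the Tu strain, axin2-/-;nkd1-/- double mutants from a cross of both lines, and embryos titled TL and Tu with no genotype label. The products of axin2 and nkd1 both damp Wnt signalling as feedback inhibitors. Samples of one group share parents and differ in the day of collection. The p-values therefore cover the spread between clutches of one family per group, and genotype and family cannot be told apart.

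Cells make most of their ATP by passing electrons along the complexes of the inner mitochondrial membrane, of which I, III and IV pump protons out of the matrix, and letting the protons back through complex V, the ATP synthase. Cytochrome b, the product of mt-cyb, carries electrons within complex III. The products of mt-co1, mt-co2 and mt-co3 form the core of complex IV, cytochrome c oxidase, which reduces oxygen to water: subunit 1 holds the oxygen-binding site, subunit 2 takes electrons from cytochrome c, and subunit 3 stabilises the core. The products of mt-atp6 and mt-atp8 belong to the membrane part of ATP synthase, where subunit a, from mt-atp6, forms the proton channel. Vertebrate mitochondrial DNA is inherited from the mother, and its genes are transcribed as long RNAs that are then cut into single mRNAs. In vertebrates mt-atp8 and mt-atp6 overlap and share 1 mature mRNA. The mitochondria of an early fish embryo come from the egg.

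Each sample held between 44098543 and 68135442 counts. Levels are given as CPM, the count per 1000000 counts of a library total scaled by TMM, whose factors ran from 0.9269 to 1.059. Counts of the 2 targeted genes per whole gene do not show whether the edit is present: axin2 stood at 94.4 ± 9.56 CPM (SD, n = 3) in axin2-/- and 67.7 ± 5.36 in TL, and nkd1 at 21.7 ± 4.13 in nkd1-/- and 12.4 ± 1.34 in Tu. Markers gave a coarse check of the stage. The 10 blastoderm markers (tbx16, tbxta, vox and others) summed to between 2557 and 3638 CPM in every sample. The 5 later stage markers found in the count table (elavl3, myod1 and others) summed to between 0.4887 and 3.154 CPM. Such sums cannot show that all groups were at exactly the same stage. The RNA came from whole embryos, so fewer cells of a type and less RNA per cell cannot be told apart.

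Transcripts of mt-co1 were high in the single mutants. TL replicates 1, 2 and 3 had 7128, 5958 and 6676 CPM of mt-co1, and Tu replicates 1, 2 and 3 had 5158.5, 5810.0 and 6497 CPM. The axin2-/- samples had 12721, 9091 and 9033 CPM, and the nkd1-/- samples had 11038, 10303 and 11197 CPM. All single mutant samples were therefore above all TL and Tu samples. The share of all genes whose CPM separates samples in this way was not counted, for this gene or for those below. The double mutant samples had 7648, 6983 and 8733 CPM, below every single mutant sample. Double mutant replicate 2 was the one mutant sample inside the range of the strains, below TL replicate 1. The group means were 6587 ± 589.7 CPM (SD, n = 3) in TL, 5822 ± 669 in Tu, 10282 ± 2113 in axin2-/-, 10846 ± 477 in nkd1-/- and 7788 ± 883 in the double mutant. In the ascending order Tu, TL, double mutant, axin2-/-, nkd1-/-, the double mutant and axin2-/- were the only neighbours whose ranges did not overlap.

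The level of mt-co2 was high in nkd1-/- and close to the strains in the double mutant. TL had 2305, 1806 and 2049 CPM, and Tu had 1625, 1792 and 2044 CPM. The axin2-/- samples had 2891, 2168 and 2317 CPM, the nkd1-/- samples 3020.4, 3096 and 2468 CPM, and the double mutant samples 2156, 1631 and 2229 CPM. All nkd1-/- samples were above all strain samples, the double mutant samples all lay within the range of the strains, and axin2-/- overlapped TL. For mt-co3, TL had 2355, 2146 and 2172 CPM, and Tu had 1573, 1794 and 2188.5 CPM. The axin2-/- samples had 2759, 1997 and 2044 CPM, the nkd1-/- samples 2683, 2972 and 2357 CPM, and the double mutant samples 2078, 1373 and 2011 CPM. For mt-co3 axin2-/- fell on either side of TL, with replicate 1 above and the other two below every TL sample. The double mutant was below TL in all 3 samples and overlapped Tu. Means of mt-co2 increased in the order Tu, double mutant, TL, axin2-/-, nkd1-/-, and means of mt-co3 in the order double mutant, Tu, TL, axin2-/-, nkd1-/-; in both orders the ranges of every pair of neighbours overlapped.

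Cytochrome b mRNA, mt-cyb, stood at 2813, 2013 and 2309 CPM in TL and at 1651, 1968 and 2009 CPM in Tu. The axin2-/- samples had 3136, 2608 and 2687 CPM, the nkd1-/- samples 3044, 3142 and 2843 CPM, and the double mutant samples 2263, 1347 and 2066 CPM. The nkd1-/- samples were above all 6 strain samples, as with mt-co2. TL replicate 1 was above 2 of the 3 axin2-/- samples, and double mutant replicate 2 was the lowest of all 15. The order of the means was the same as for mt-co2, and the ranges of every pair of neighbours overlapped.

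The ATP synthase gene mt-atp6 went the other way. TL had 2391, 2805 and 2198 CPM, and Tu had 2180, 2273 and 2919 CPM. The axin2-/- samples had 1524, 1382 and 1120 CPM, the nkd1-/- samples 1566, 2326 and 1258.5 CPM, and the double mutant samples 1850.5, 879 and 1478 CPM. Of the 9 mutant samples, 8 were below every strain sample, and nkd1-/- replicate 2 was the exception. The means were 2465 ± 310.4 CPM (SD, n = 3) in TL, 2457 ± 403 in Tu, 1342 ± 205 in axin2-/-, 1717 ± 549 in nkd1-/- and 1402 ± 490.2 in the double mutant. The SD was 35.0% of the mean in the double mutant and 32.0% in nkd1-/-, against 12.6% in TL.

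The smallest counts were those of mt-atp8, with 385 to 1152 counts per sample. TL had 18.8, 21.8 and 15.9 CPM, and Tu had 15.9, 18.5 and 14.4 CPM. The axin2-/- samples had 17.4, 12.7 and 12.2 CPM, the nkd1-/- samples 15.3, 19.9 and 10.5 CPM, and the double mutant samples 16.6, 8.82 and 14.8 CPM. Every mutant group overlapped its control for mt-atp8. Its counts were between 0.4935% and 0.8157% of those of mt-atp6, the gene it overlaps, in the strain samples. In the mutant samples they were between 0.8333% and 1.142%, so the ranges lay apart by little. This percentage was chosen after the values had been seen and carries no test. How many pairs among all genes separate the samples like this was not counted. How reads on shared bases were assigned is not given in the sources used here, so the split of reads between mt-atp8 and mt-atp6 is uncertain, and so are reads from copies of mitochondrial sequence in the nuclear genome.

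**Figure D1:**
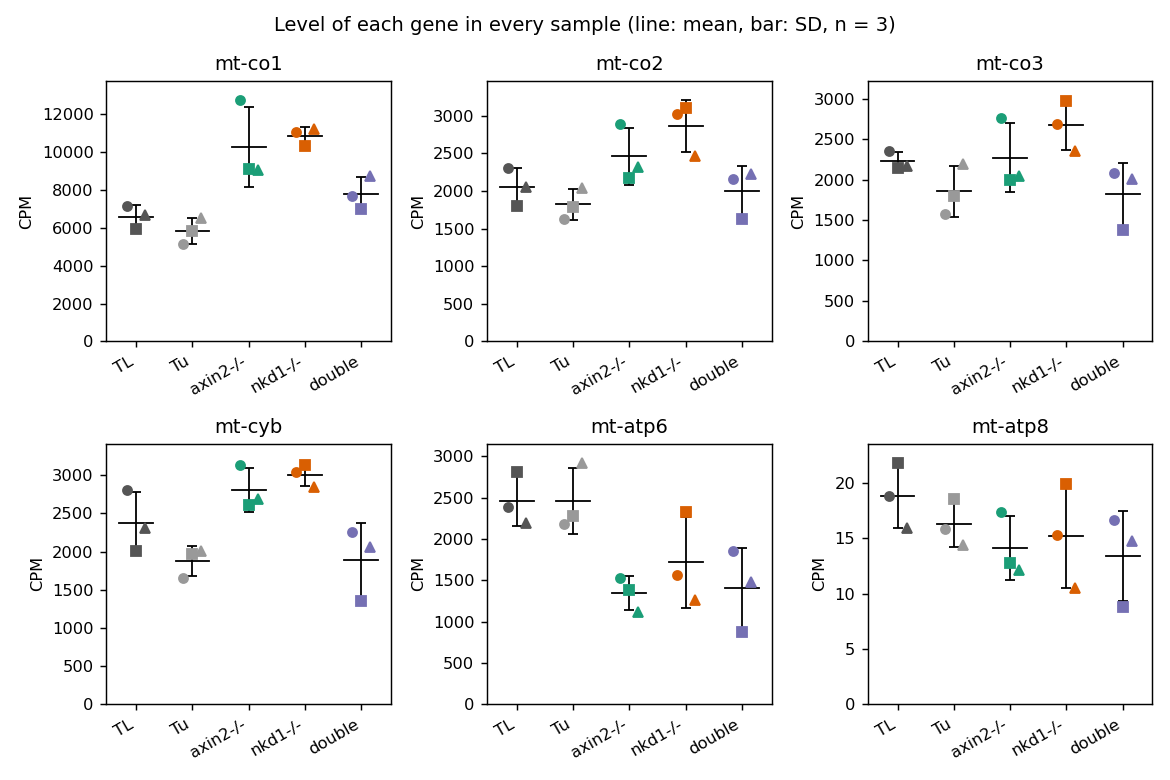
Level of each of the 6 genes in CPM (linear axis from 0) in every sample of TL, Tu, axin2-/-, nkd1-/- and the double mutant; circle, square and triangle are replicates 1, 2 and 3, the line is the mean and the bar the SD (n = 3). The mt-co1 points of both single mutants lie above all strain points, and the mt-atp6 points of axin2-/- and the double mutant lie below them.

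Loss of axin2 was compared with TL, the strain in which the mutation was made. In axin2-/- mt-co1 rose 1.56-fold and mt-atp6 fell to 0.545 of its TL level. The log2 fold changes were 0.64 ± 0.12 (SE) for mt-co1, with an adjusted p of 0.00142 in edgeR's quasi-likelihood test with Benjamini-Hochberg adjustment over all genes, and -0.88 ± 0.23 for mt-atp6, with an adjusted p of 0.0115. Calls here and below need an adjusted p under 0.05. The other 4 genes were not called: the log2 fold change was 0.26 for mt-co2 (95% interval -0.03 to 0.55), 0.03 for mt-co3 (-0.30 to 0.36), 0.24 for mt-cyb (-0.08 to 0.57) and -0.42 for mt-atp8 (-0.93 to 0.09). In this comparison 21.2% of all genes were called, 10.6% higher and 10.6% lower, against 2 of the 6 genes here. The call of mt-atp6 was lost without axin2-/- replicate 3, with an adjusted p of 0.0523 in edgeR.

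Loss of nkd1 was compared with Tu in the same way. All 4 cytochrome genes rose in nkd1-/-: mt-co1 1.86-fold, mt-co2 1.57-fold, mt-co3 1.44-fold and mt-cyb 1.60-fold. Their log2 fold changes were 0.90 ± 0.13 (SE), 0.65 ± 0.14, 0.53 ± 0.16 and 0.68 ± 0.15, with edgeR adjusted p-values of 5.24e-05, 0.00195, 0.0173 and 0.00330. Neither ATP synthase gene was called. The log2 fold change of mt-atp6 was -0.52 ± 0.23 with an edgeR adjusted p of 0.101, and that of mt-atp8 was -0.10 (95% interval -0.61 to 0.41). Of all genes 29.3% were called, 14.4% higher and 14.8% lower. Single samples decided 2 of these calls. Without nkd1-/- replicate 2, the one high in mt-atp6, the log2 fold change of mt-atp6 was -0.80 with an edgeR adjusted p of 0.0187. The call of mt-co3 was lost without that sample, at an adjusted p of 0.0687, and without Tu replicate 1, at 0.0846.

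The double mutant was compared with the mean of TL and Tu, since its nuclear genome descends from both lines. Mitochondrial DNA comes from the mother, so this mean need not match the mitochondrial genome of the double mutant. The maternal line of the double mutant was not taken into account. Against this mean mt-co1 rose 1.26-fold, with a log2 fold change of 0.33 ± 0.11 (SE) and an edgeR adjusted p of 0.0214. The level of mt-atp6 fell to 0.570 of the strains' mean, with a log2 fold change of -0.81 ± 0.21 and an edgeR adjusted p of 0.00513. The other genes were not called, with log2 fold changes of 0.05 for mt-co2, -0.16 for mt-co3, -0.16 for mt-cyb and -0.38 for mt-atp8. Of all genes 37.4% were called, 19.7% higher and 17.7% lower, so 2 of 6 was close to the background. The mt-co1 call was lost against TL alone, with a log2 fold change of 0.24 and an edgeR adjusted p of 0.145, and without double mutant replicate 3, at an adjusted p of 0.140.

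The strains themselves were compared because each single mutant carries the background of one of them. None of the 6 genes was called between TL and Tu in edgeR's quasi-likelihood test, while 31.1% of all genes were, 15.3% higher and 15.7% lower in TL. At an unadjusted p under 0.05 the count was 1 of 6, mt-cyb, with a log2 difference of 0.34 ± 0.15 (SE), an unadjusted p of 0.0404 and an edgeR adjusted p of 0.102. DESeq2 called none of the 6. With only the TL and Tu samples in the fit mt-cyb was called, at an edgeR adjusted p of 0.0498. The log2 difference of mt-atp6 was 0.00 (95% interval -0.48 to 0.49).

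The double mutant was then compared with each single mutant, the question being which single mutant it resembles. Against nkd1-/-, all 4 cytochrome genes fell in the double mutant, to between 0.629 (mt-cyb) and 0.718 (mt-co1) of the nkd1-/- level. The log2 differences were -0.48 ± 0.12 (SE) for mt-co1, -0.51 ± 0.14 for mt-co2, -0.55 ± 0.16 for mt-co3 and -0.67 ± 0.15 for mt-cyb, with edgeR adjusted p-values of 0.0180, 0.0214, 0.0282 and 0.00865. Neither mt-atp6, at -0.29 (95% interval -0.77 to 0.19), nor mt-atp8, at -0.18, was called. In this comparison 11.5% of all genes were called, 6.06% higher and 5.49% lower, the smallest share of the comparisons made. Without double mutant replicate 2 mt-cyb alone was still called. The calls of mt-co2 and mt-co3 were also lost without nkd1-/- replicate 1 or 2, and that of mt-co1 without nkd1-/- replicate 3. Against axin2-/-, mt-co1 and mt-cyb fell in the double mutant, by 0.40 ± 0.12 (SE) and 0.57 ± 0.15 on the log2 scale, with edgeR adjusted p-values of 0.0176 and 0.00793. The log2 differences of mt-co2 and mt-co3 were -0.29 and -0.32, not called, and that of mt-atp6 was 0.06 (95% interval -0.42 to 0.55). Of all genes 38.6% were called against axin2-/-, 19% higher and 19.5% lower. The mt-co1 call was lost without axin2-/- replicate 1 and without double mutant replicate 2.

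Whether the change in the double mutant equals the sum of the single mutant changes was tested as a contrast chosen after the values had been seen. All 4 cytochrome genes stood below that sum. The departure was -1.21 ± 0.16 (SE) on the log2 scale for mt-co1, -0.86 ± 0.18 for mt-co2, -0.71 ± 0.21 for mt-co3 and -1.08 ± 0.20 for mt-cyb, with edgeR adjusted p-values of 8.31e-05, 0.00321, 0.0216 and 0.00140. For mt-atp6 the departure was 0.58 ± 0.30 with an edgeR adjusted p of 0.194, and for mt-atp8 it was 0.13. Of all genes 19.7% departed from the sum, 9.7% above it and 10% below it. The mt-co3 call was lost without axin2-/- replicate 1 or double mutant replicate 2. The departure of mt-atp6 was called, at edgeR adjusted p-values of 0.0426 and 0.0415, without nkd1-/- replicate 2 or double mutant replicate 2. This contrast shares its samples with those above, so its values are not separate evidence.

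**Figure D2:**
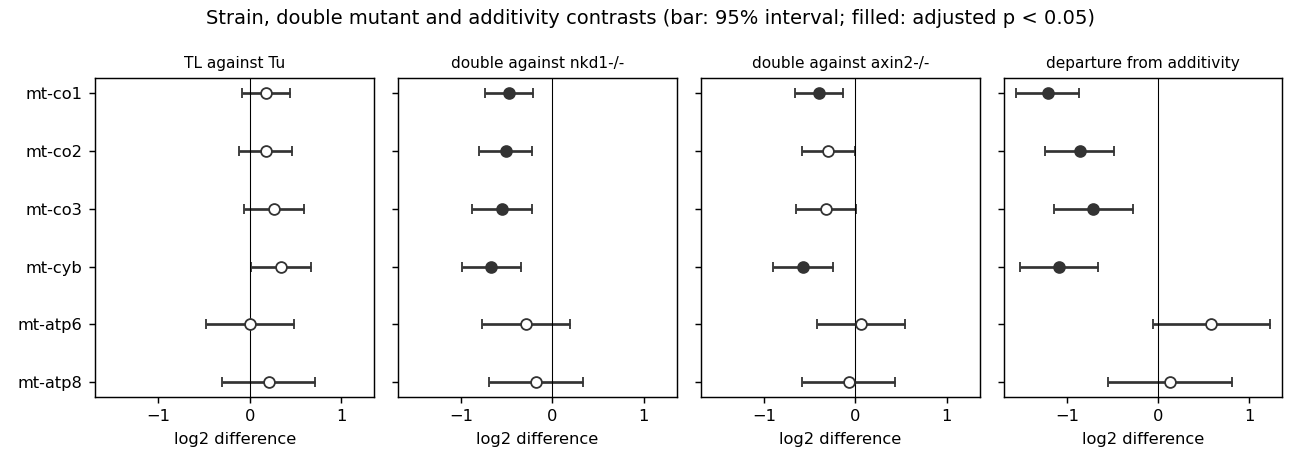
Log2 difference of each of the 6 genes for TL minus Tu, for the double mutant minus either single mutant, and for the departure from additivity; bars are 95% intervals and filled points have an edgeR adjusted p under 0.05. The 4 cytochrome genes lie left of 0 in both double mutant panels and for the departure, while the intervals of mt-atp6 and mt-atp8 cross 0 in every panel.

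The balance among the 6 genes separated every mutant sample from every strain sample. These shares and ratios were chosen after the values had been seen and carry no test. Of the counts of the 6 genes together, mt-co1 took 40.4% to 43.3% in the 6 strain samples and 47.1% to 57.1% in the 9 mutant samples. The share of mt-atp6 was 14.1% to 19.0% in the strain samples and 6.25% to 11.6% in the mutant samples. Neither pair of ranges overlapped, and the shares of the other 4 genes overlapped. A share does not depend on how the libraries were scaled, although a rise of one gene lowers the shares of the rest. The mean share of mt-co1 was 41.9% ± 1.46 (SD, n = 3) in TL, 42.1% ± 0.56 in Tu, 53.5% ± 1.51 in axin2-/-, 51.5% ± 4.24 in nkd1-/- and 52.6% ± 4.70 in the double mutant. Among all 21614 genes, set against the summed counts of the 6 in the same way, 2.87% were lower in all 9 mutant samples than in all 6 strain samples and 0.301% were higher in all 9. The sum itself averaged 1.93% of all counts in axin2-/- and 2.10% in nkd1-/-, against 1.61% in TL and 1.37% in Tu. In the double mutant it averaged 1.47%, between the strains. A larger sum, as in the single mutants, lowers the relative value of other genes. These shares are therefore not an even background for mt-co1 or mt-atp6.

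The ratio of mt-co1 to mt-atp6 counts shows the same values as one number per sample. It was 2.98, 2.12 and 3.04 in TL, 2.37, 2.56 and 2.23 in Tu, 8.35, 6.58 and 8.07 in axin2-/-, 7.05, 4.43 and 8.90 in nkd1-/-, and 4.13, 7.95 and 5.91 in the double mutant. The lowest mutant ratio, in double mutant replicate 1, was above the highest strain ratio, in TL replicate 3. The ratio of mt-co3, whose gene lies next to mt-atp6, to mt-atp6 ran from 0.722 to 0.988 in the strains and from 1.12 to 1.87 in the mutants. The ratio of mt-co2 to mt-co3, 2 subunits of one complex, ran from 0.841 to 1.03 in the strains and from 1.04 to 1.19 in the mutants, so these ranges lay apart by little. The ratio of mt-co1 to mt-co3 ran from 2.78 to 3.28 in the strains and from 3.47 to 5.09 in the mutants, again with no overlap. The ratio of mt-cyb to mt-co3 did overlap, at 0.918 to 1.195 in the strains and 0.9813 to 1.315 in the mutants. How many pairs among all genes separate the samples in this way was not counted. Together the 6 genes made up 1.80%, 1.48% and 1.56% of all counts in TL, 1.25%, 1.37% and 1.48% in Tu, 2.32%, 1.71% and 1.76% in axin2-/-, 2.23%, 2.03% and 2.03% in nkd1-/-, and 1.58%, 1.21% and 1.61% in the double mutant. All nkd1-/- samples lay above all TL and Tu samples, and the other two mutant groups overlapped the strains.

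**Figure D3:**
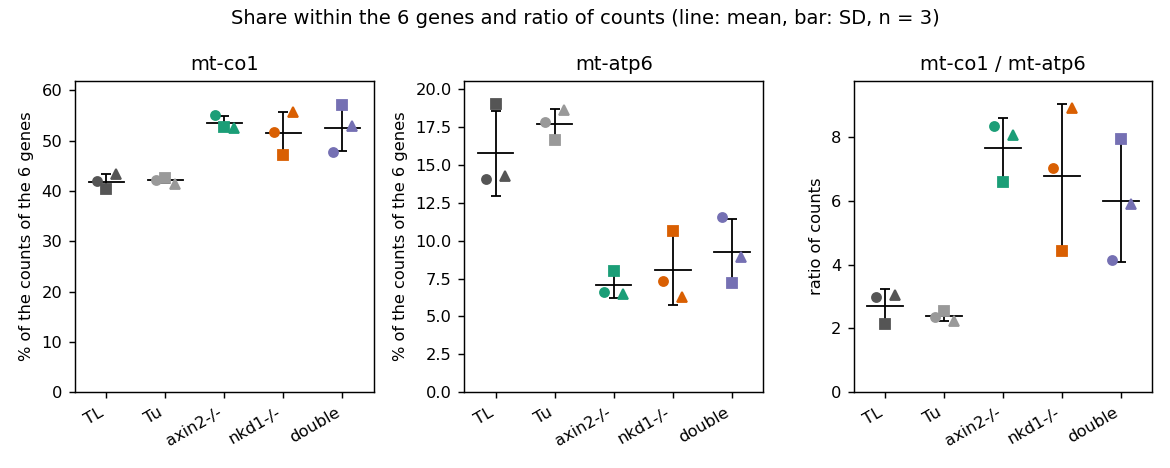
Share of mt-co1 and of mt-atp6 in the counts of the 6 genes (percent) and the ratio of mt-co1 to mt-atp6 counts, for every sample by group; markers are replicates, the line is the mean and the bar the SD (n = 3). Strain and mutant samples do not overlap in any panel: the ratio is at most 3.04 in the strains and at least 4.13 in the mutants.

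Within groups the 6 genes varied together from one collection to the next, except that mt-co1 and the ATP synthase genes were loosely linked. After each group's mean was taken off, log2 CPM of mt-co2 correlated with mt-co3 at r = 0.935 and with mt-cyb at r = 0.883, and mt-atp6 correlated with mt-atp8 at r = 0.842, over 15 samples. The value for mt-co1 and mt-atp6 was 0.288. These are descriptions over samples that share library size and scaling, with no test. Double mutant replicate 2, the smallest library, had the lowest level of mt-co3, mt-cyb, mt-atp6 and mt-atp8 among all 15 samples. In nkd1-/-, replicate 2 was the highest of its group for mt-atp6 and mt-atp8, at 2326 and 19.9 CPM. It was also the highest for mt-co2, mt-co3 and mt-cyb, at 3096, 2972 and 3142 CPM. Only for mt-co1 was it the lowest of its group, at 10303 CPM.

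The mitochondrial genome also encodes 7 subunits of complex I, which passes electrons from NADH into the chain, and these served as the nearest comparison. In edgeR none of the 7 was called in axin2-/- against TL or in nkd1-/- against Tu (1 and 0 at an unadjusted p under 0.05, and 0 in both by DESeq2), where the medians of their log2 fold changes were -0.33 and -0.07. In the double mutant the median log2 fold change of the 7 was -0.50, against 0.03 over all genes. There 3 of the 7 fell, beside 17.7% of all genes called lower and 37.4% called in either direction. They are named here after their values were seen: mt-nd1 fell by 0.64 on the log2 scale, mt-nd2 by 0.95 and mt-nd6 by 0.52, with edgeR adjusted p-values of 0.0141, 0.00183 and 0.0117. The mt-nd1 call was lost without double mutant replicate 2, at an edgeR adjusted p of 0.0997. The mt-nd2 call held whichever sample was left out, and mt-nd6 was not checked in this way. Levels of mt-nd2, the complex I gene next to mt-co1, had log2 fold changes of -0.46 in axin2-/- and -0.45 in nkd1-/-, with edgeR adjusted p-values of 0.181 and 0.153. Without nkd1-/- replicate 2 mt-nd2 was called in nkd1-/- as well, at -0.82 and an edgeR adjusted p of 0.00890, as was mt-atp6. In the axin2-/- comparison mt-nd2 was called with only the axin2-/- and TL samples in the fit, at an edgeR adjusted p of 0.0210. The counts of the 6 genes were 3.24 to 4.17 times those of the 7 complex I genes in the strain samples and 4.15 to 7.04 times in the mutant samples. Those ranges overlapped through nkd1-/- replicate 2, the lowest mutant sample, and the highest TL sample.

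In gene order, taken from the RefSeq annotation of GRCz12tu since the count table gives no positions, mt-co1 and mt-co2 are followed by mt-atp8, mt-atp6 and mt-co3. The 2 ATP synthase genes thus lie between complex IV genes. In axin2-/- the log2 fold changes along this stretch were 0.64, 0.26, -0.42, -0.88 and 0.03. In nkd1-/- they were 0.90, 0.65, -0.10, -0.52 and 0.53, and in the double mutant 0.33, 0.05, -0.38, -0.81 and -0.16. In each mutant mt-atp6 was the lowest of the 5 and mt-co1, the gene at the start of the stretch, the highest. The differences between neighbours were not tested. Lengths in GRCz12tu were not used, so levels of different genes are not compared per length.

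**Figure D4:**
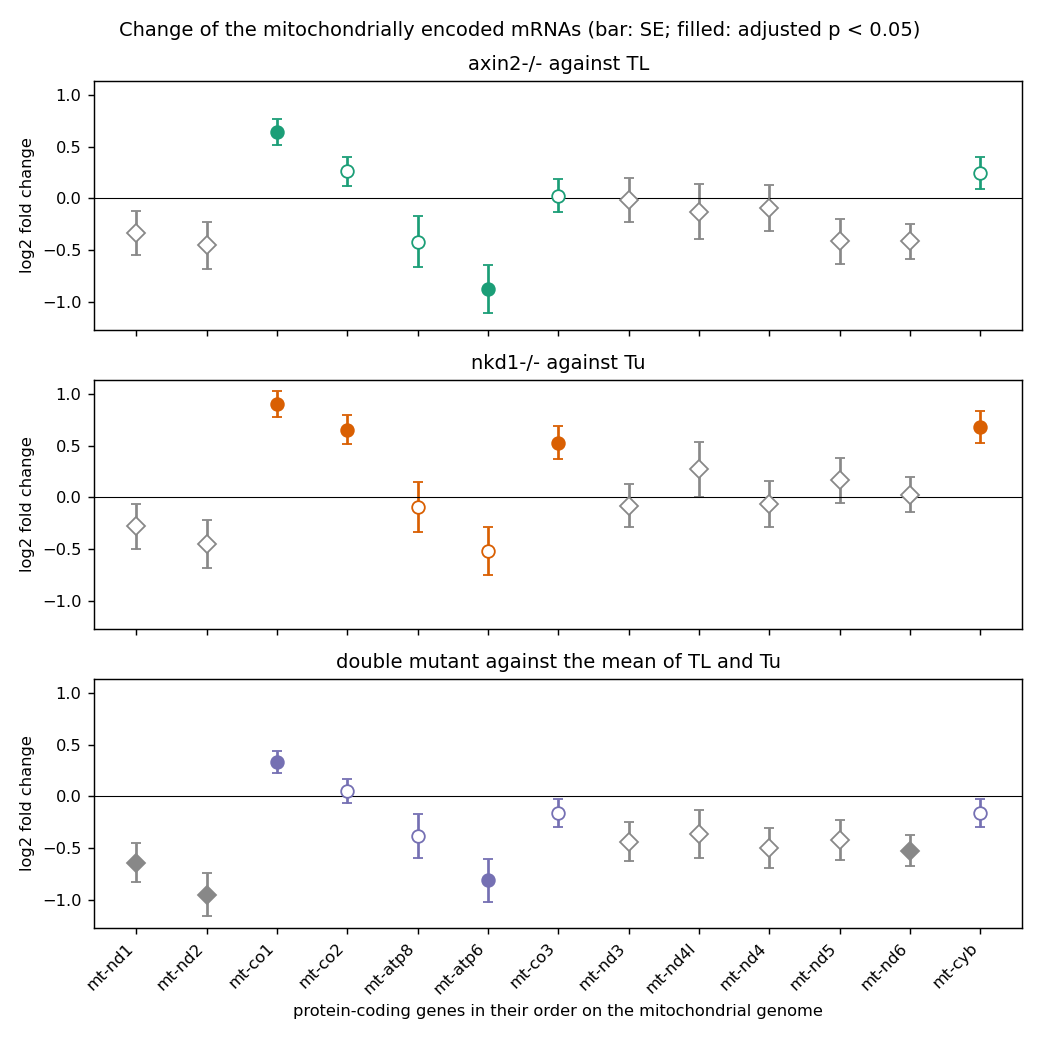
Log2 fold change of the protein-coding genes of the mitochondrial genome, in their order along it, in axin2-/- against TL, nkd1-/- against Tu and the double mutant against the mean of both strains; coloured circles are the 6 genes described, grey diamonds are complex I genes, bars are SE and filled points have an edgeR adjusted p under 0.05. In each panel mt-co1 is above 0 and mt-atp6, a few genes on, is below 0.

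Complexes III, IV and V are also built from proteins encoded in the nucleus. The share of all genes called was 21.2% in axin2-/-, 29.3% in nkd1-/-, 37.4% in the double mutant and 31.1% between TL and Tu. Nothing is read from the counts of these short lists beyond the counts. Of 16 nuclear complex V genes tested, 1 rose and 2 fell in axin2-/-, 3 fell in nkd1-/-, and 2 rose and 2 fell in the double mutant, with median log2 fold changes of 0.11, -0.26 and 0.09. One of the complex V genes that fell in axin2-/- was atp5f1b, which encodes the catalytic beta subunit of ATP synthase: its level was 128 ± 25.2 CPM (SD, n = 3) in axin2-/- and 309 ± 41.1 in TL. Its log2 fold change was -1.27 with an edgeR adjusted p of 6.14e-06. In nkd1-/- it was -0.14, not called, and atp5f1b was higher in the double mutant than in axin2-/- by 0.90 on the log2 scale, with an edgeR adjusted p of 8.14e-05. Of 10 nuclear complex IV genes tested, none was called in axin2-/- by edgeR or DESeq2 (2 at an unadjusted p under 0.05), 2 rose and 1 fell in nkd1-/-, and 3 rose in the double mutant. Subunit gene cox4i1, whose product binds the mitochondrially encoded core, had log2 fold changes of -0.13 in axin2-/- and -0.28 in nkd1-/-, neither called. Of 8 nuclear complex III genes, 1 fell in axin2-/-, none was called in nkd1-/- by edgeR (2 at an unadjusted p under 0.05, and 1 by DESeq2) and 1 rose in the double mutant. The one that fell was uqcrfs1, the Rieske iron-sulfur protein that works beside cytochrome b, with a log2 fold change of -0.40 and an edgeR adjusted p of 0.0102 in axin2-/-. It was higher in the double mutant than in axin2-/- by 0.63, with an edgeR adjusted p of 0.000162. The strains differed in uqcrfs1 too, with a log2 difference of -0.40 for TL against Tu and an edgeR adjusted p of 0.00681. Against the mean of both strains the double mutant was at 0.03, not called. Of the nuclear genes tested, 4 of 8 for complex III and 5 of 16 for complex V were lower in TL than in Tu. For complex IV 1 of 10 was higher and 2 were lower. The part of strain background was not tested. Over all genes tested the medians of these comparisons were 0.01, 0.00 and 0.03.

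Genes that keep and read the mitochondrial genome, and genes that assemble complex IV, were counted from lists in the same way, beside the same shares of 21.2%, 29.3% and 37.4% of all genes. Of 14 tested genes for mitochondrial DNA maintenance and transcription, 1 fell in axin2-/-, 2 rose and 3 fell in nkd1-/-, and 2 rose in the double mutant. Of 14 tested complex IV assembly genes, 2 rose in axin2-/-, 1 rose and 2 fell in nkd1-/-, and 2 rose and 5 fell in the double mutant. The 2 mitochondrial rRNAs of the list were not matched and are not used here.

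**Figure D5:**
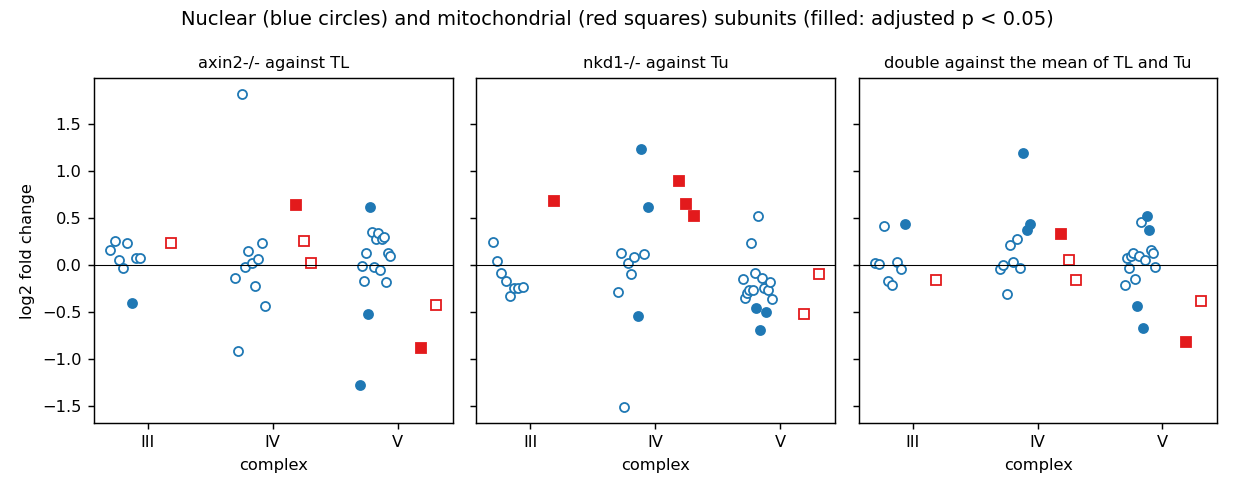
Log2 fold changes of the subunits of complexes III, IV and V that are encoded in the nucleus (blue circles) and in the mitochondrial genome (red squares), one point per gene, in axin2-/- against TL, nkd1-/- against Tu and the double mutant against the mean of both strains; filled points have an edgeR adjusted p under 0.05. Nuclear genes lie on both sides of 0 in each panel, and the lower of the 2 mitochondrial complex V points is mt-atp6.

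Marker genes of the cell types of the embryo were counted in the same comparisons, in which 21.2% of all genes were called in axin2-/-, 29.3% in nkd1-/- and 37.4% in the double mutant. In lists this short the counts are given beside those shares with nothing read from them. Of 8 enveloping layer markers, which mark the outer epithelium, 1 rose in axin2-/-, 3 rose in nkd1-/-, and 5 rose and 1 fell in the double mutant. They summed to 7260 to 9351 CPM in TL, 8881 to 10770 in Tu, 8093 to 9907 in axin2-/-, 9959 to 14620 in nkd1-/- and 10850 to 11500 in the double mutant. Of 6 yolk syncytial layer markers 3 rose in axin2-/-, 1 rose and 2 fell in nkd1-/-, and 4 rose and 1 fell in the double mutant, with sums of 369.6 to 395.5 CPM in TL, 410.5 to 473.2 in Tu, 486.1 to 541.8 in axin2-/-, 412.8 to 650.7 in nkd1-/- and 532.7 to 596.6 in the double mutant. Of the 6 germ cell markers, 3 fell in axin2-/-, 3 rose in nkd1-/- and 1 rose in the double mutant. They summed to 352.3 to 423.5 CPM in TL, 382.4 to 459.5 in Tu, 199.8 to 490.3 in axin2-/-, 526.2 to 583.2 in nkd1-/- and 478.2 to 495.5 in the double mutant. Of the 10 blastoderm markers, 2 rose in each single mutant, and 3 rose and 1 fell in the double mutant. The part of these cell types in the levels of the mitochondrial genes was not tested.

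The genes whose levels were most like the mean of the 6 genes were sought by the Pearson correlation of log2 CPM over the 15 samples, among 8040 genes that averaged 10 CPM or more and lie outside the mitochondrial genome. The highest values were 0.812 for ncbp2l, 0.794 for tax1bp3, 0.781 for dach2, 0.772 for slc39a10 and 0.732 for dmtf1. Without the 2 samples farthest from the median they were 0.703, 0.739, 0.604, 0.539 and 0.418. The mean of the 6 joins genes that moved in opposite directions, so mt-atp6 and mt-co1 were also matched alone, a choice made after the values were seen. The nearest of 8052 genes to mt-atp6 were mt-nd2 at 0.911, mt-nd1 at 0.89, ndel1 at 0.889 and mt-nd6 at 0.871. Among the nearest to mt-co1 were si:ch211-202f5.3 at 0.891, mt-co2 at 0.879 and dhrs9 at 0.878. Across all 15 samples mt-atp6 correlated with mt-co1 at -0.487. These are descriptions over samples of 5 families, with no test.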

How the data were processed

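The deposited values are raw counts by Ensembl gene, in a single table with a column for each of the 15 samples and 0 columns of other samples. GRCz11 and edgeR 3.30.3 are named in the submitters' processing notes. The aligner, the counting tool, the use of strand and any selection of poly(A) RNA are not given in the sources used here. Gene symbols came from the reference tables, which named 29201 of 32520 IDs (89.8%).

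edgeR 4.0.16 under R 4.3.3 was used, with filterByExpr set to a minimum count of 10 and a minimum total of 15, and TMM scaling. All comparisons were contrasts in one quasi-likelihood fit (glmQLFit, glmQLFTest) over 15 samples. The fit had a term for group alone, which left 10 residual degrees of freedom, and p-values were adjusted by Benjamini-Hochberg over 21614 genes. CPM is the count per 1000000 counts of the TMM-scaled total. Correlations used log2 CPM with a prior count of 2. Totals ran from 44098543 to 68135442 counts, and for the 6 genes replicate spread, not depth, set the error. A chi-square of counts between replicates was 12.3 to 67.2 per degree of freedom over 15 pairs, so each library counted as its own sample. The pipeline was also run on simulated counts with 200 genes changed in axin2-/-. Those counts held no effect of family or collection, so the run cannot speak to such effects.

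The members, gene lists and tests were chosen with earlier results of these data known. The departure from additivity, the shares and the ratios were added after seeing the values. Of the lists, the named genes are among the most abundant 4 of each, apart from those said to be named after their values. Alternatives were DESeq2 1.42.0, other scalings, no filter, a replicate block, fits of the compared groups alone, single control strains, and leaving out each sample.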

Additional observations from a re-analysis of the deposited data

Results flagged for a closer look

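For 4 of the 6 genes edgeR's quasi-likelihood test found the double mutant's change unequal to what the 2 single mutants add up to, in a contrast chosen after the values had been seen and in which 19.7% of all genes were called. The log2 departures were -1.21 for mt-co1, -0.86 for mt-co2, -0.71 for mt-co3 and -1.08 for mt-cyb. The mt-co3 call was lost without axin2-/- replicate 1, at an edgeR adjusted p of 0.0591, and without double mutant replicate 2, at 0.0536. The double mutant also differs from the single mutants in strain background, and the 2 cannot be told apart. Its maternal line, the source of its mitochondrial genome, was not taken into account.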

How the results depend on the processing

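Outside the fits that left out a sample, 295 values of the 6 genes kept their direction and side of the threshold. Of the exceptions, 3 near 0 changed sign: mt-atp6 in TL against Tu with the replicate block (-0.0079), and in the double mutant mt-co2 against TL alone (-0.0339) and mt-cyb against Tu alone (0.0125). One of the 6 genes was called between TL and Tu with only those groups in the fit (mt-cyb, 0.36). In the double mutant against TL alone 1 was called, mt-atp6, while mt-co1, at 0.24, was not. Leaving out each sample in turn, the number of the 6 called ranged from 1 to 2 for axin2-/- and 3 to 4 for nkd1-/-, each against its strain, from 1 to 2 for the double mutant against both strains, and from 0 to 1 between the strains. It ranged from 1 to 4 when the double mutant was set against nkd1-/-, from 1 to 2 when set against axin2-/-, and from 3 to 5 for the departure. Signs that changed were those of mt-co3 in axin2-/- (-0.14 to 0.10), mt-atp8 in nkd1-/- (-0.33 to 0.11), mt-co2 (-0.0228 to 0.18), mt-co3 (-0.27 to 0.008) and mt-cyb (-0.31 to 0.0331) in the double mutant, mt-atp6 in TL against Tu (-0.0772 to 0.15), mt-atp8 in the double mutant against nkd1-/- (-0.39 to 0.0553), mt-atp6 (-0.20 to 0.31) and mt-atp8 (-0.26 to 0.15) against axin2-/-, and the departure of mt-atp8 (-0.084 to 0.37). The genes called over the whole table ranged from 3304 to 4289 against 4592 in axin2-/-, and from 1444 to 2738 against 2496 in the double mutant against nkd1-/-, with 1558 without nkd1-/- replicate 3, 1563 without double mutant replicate 2 and 1444 without double mutant replicate 3. Same-numbered samples of different groups correlated weakly, at -0.0676 to 0.135 over 30 pairs, with a mean of 0.0211 and 2 over 0.1. On average over the other groups, 9 of 15 samples correlated best with their own number. The count expected without pairing was not worked out. Whether the replicate numbers mark shared collections was therefore not tested. With the number as a block 4740, 6479 and 8168 genes were called in the mutant comparisons, 2, 4 and 2 of the 6 among them. Without the block the counts over all genes were 4592, 6324 and 8089. The causes of these changes were not tested.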
